A study of Mus musculus with 12 samples.

Results

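The genes described here are 30 mouse p53 target genes, with Trp53 (the gene of p53 itself) counted among them, out of 37287 gene IDs in the count tables. They were chosen by name as a pathway list, all 30 were found in both tables, and they were grouped by what their products do. RNA was taken from mouse embryonic fibroblasts of the genotype MyoD-/-; Myf5-/-, so in every group, controls included, the cells' own genes for both muscle-determination factors are disrupted and a factor is supplied only by the virus. Cells were transduced with lentivirus in the presence of polybrene for 24 h, then kept for 20 h in a differentiation medium, and poly(A)-selected libraries were sequenced. The GFP control group held 5 libraries: 4 at a multiplicity of infection (MOI, the amount of infectious virus per cell) of 15, 30, 60 and 120, and 1 labelled 1x. MyoD and Myf5 virus were each given at 1x and at 2x, with 1 library per dose. One library came from untransduced cells of the same line, and a second table held 1 library with 1x Chimera virus and 1 with 1x MyoD from a second batch of virus prepared to match the Chimera. Which MOI corresponds to 1x, which promoter drives the viral gene and what the Chimera is made of are not given in the sources used here, and neither is whether libraries came from separate cultures, so p-values measure the spread between these libraries.

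The transcription factor p53 is made constantly and destroyed as fast by the ubiquitin ligase Mdm2, and its activity is set mainly by the stability of the protein rather than by the level of its mRNA. When DNA damage or other stress frees p53 from Mdm2, it binds response elements made of a pair of half-sites and activates genes that stop the cell cycle, repair DNA, adjust metabolism or drive cell death. Mdm2 is itself a target, which closes a negative feedback loop. In fibroblasts the response is known mostly for growth arrest.

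Levels are given as CPM, a gene's counts per mega (M) of all counts in its library. Totals were 17.9 to 22.4 M in the 4 MOI libraries, 68.3 to 81.5 M in the 6 others of the first table and 23.7 to 25.1 M in the second. The labels passed the check on the transduced genes: Myod1 was at 309 and 617 CPM in 1x and 2x MyoD and at 5.21 to 5.99 CPM in the other 8 libraries of the first table, and Myf5 was at 149.5 and 249 CPM in 1x and 2x Myf5 and at 11.9 to 24.4 CPM in the other 8. In the Chimera library Myod1 was at 22.1 CPM and Myf5 at 165 CPM. The 10 fibroblast markers summed to 12824 to 27849 CPM, lowest in 2x MyoD, and the 10 skeletal muscle markers to 2.15 to 3.30 CPM without a factor, 33.6 and 129 CPM with Myf5 and 861 and 2831 CPM with MyoD. Epithelial (0.350 to 2.53 CPM), endothelial (0.558 to 2.39 CPM) and macrophage markers (10.3 to 16.5 CPM, with Adgre1 at 0 in every library) were low, and 4 neuron and glia markers summed to 18.5 to 55.3 CPM. In bulk RNA, fewer cells carrying a transcript and less of it per cell cannot be told apart.

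Of the 30 genes, 27 reached 1 CPM in at least 2 libraries and were tested. The other 3 are cell death or stress genes: Pmaip1 (Noxa) was at 0.0499 to 0.338 CPM, Gdf15, a secreted stress cytokine, at 0.0506 to 0.626 CPM, and Perp, a membrane protein of p53-driven death, had 2 counts in 1 library and none in the rest. Levels of those tested ran from Plk3, at 8.82 to 24.8 CPM, to Ccng1, at 569 to 809 CPM, which only Cd82 exceeded, in 2x MyoD and second-batch MyoD. Tnfrsf10b had fractional counts in 10 libraries, a sign that reads were shared with another gene, so its level is uncertain.

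**Figure D1:**
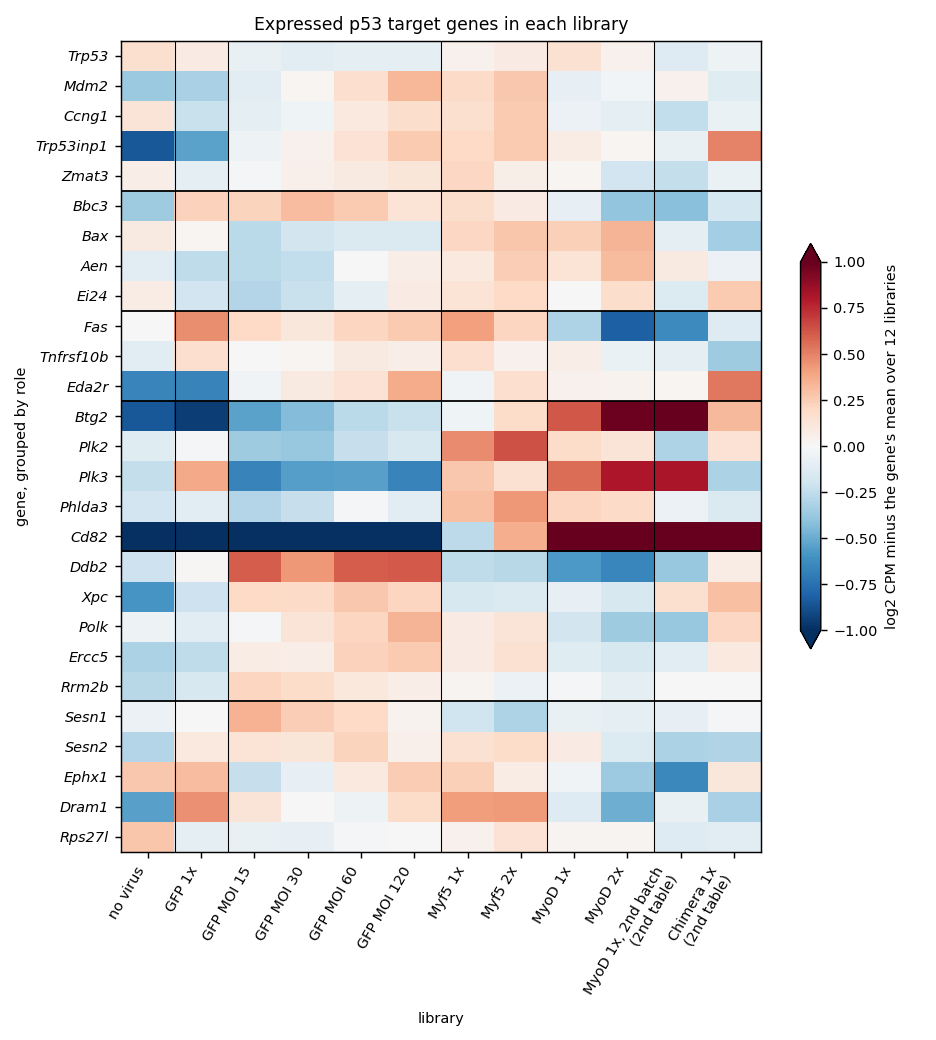
Levels of the 27 tested p53 target genes in the 12 libraries, each as the log2 difference in CPM from the mean of that gene's log2 CPM over the libraries; genes are grouped by role (horizontal lines), libraries by virus, and the colour scale (red higher, blue lower) is capped at 1 in either direction. The widest spread is in Cd82 and Btg2, which are highest with MyoD and the Chimera, while Trp53 varies least.

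Along the GFP virus series, with no myogenic factor present, some of the p53 targets rose with virus amount while Trp53 mRNA did not. A slope on log2 MOI over the 4 libraries (edgeR quasi-likelihood test, Benjamini-Hochberg adjusted p under 0.05) was positive for 12 of 27 members and negative for 1. That is 44.4% higher and 3.70% lower, against 4.06% higher and 3.42% lower among the 13383 genes tested. The median slope was 0.04 log2 units per doubling of MOI in the 27 members and -0.00023 over all genes. There is 1 library per MOI, so the spread behind each slope is the departure of the 4 points from a line.

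The feedback genes held some of the steepest slopes. Mdm2 (ENSMUSG00000020184.8), which marks p53 for destruction, was at 248, 272, 302 and 338 CPM at an MOI of 15, 30, 60 and 120. It climbed at every step and its slope was 0.15 ± 0.017 (SE) log2 units per doubling, adjusted p = 9.256e-06. Ccng1, cyclin G1, which recruits a phosphatase to Mdm2, was at 628, 654, 721 and 762 CPM (slope 0.10 ± 0.016, adjusted p = 0.000526). Trp53inp1, a nuclear protein that aids p53 phosphorylation, was at 267, 286, 306 and 332 CPM (slope 0.11 ± 0.016, adjusted p = 0.000416). All 3 rose at each of the steps, by 36.2%, 21.3% and 24.3% from the lowest MOI to the highest.

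Trp53 (ENSMUSG00000059552.6) itself was at 138, 136, 136 and 136 CPM in the same libraries. Its slope was -0.005 ± 0.018 log2 units per doubling (adjusted p = 0.918), so no change of the mRNA with MOI was detected. Zmat3, a zinc finger RNA-binding protein of the same group, went from 220.3 through 230.2 and 237 to 242 CPM, but its slope of 0.05 ± 0.017 missed the threshold (adjusted p = 0.120).

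Among the cell death genes, 2 of the 4 tested rose. Aen, an exonuclease that cuts DNA in dying cells, was at 74.0, 75.4, 89.0 and 93.3 CPM (slope 0.13 ± 0.021, adjusted p = 0.000975). Ei24, an endoplasmic reticulum protein linked to autophagy, was at 84.4, 88.9, 96.9 and 109 CPM (slope 0.13 ± 0.020, adjusted p = 0.000399). The 2 mitochondrial death effectors did not pass: Bax was at 122, 129, 133 and 133 CPM (adjusted p = 0.192) and Bbc3 (Puma) at 25.6, 27.2, 26.4 and 24.1 CPM (adjusted p = 0.71).

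Of the 3 death receptors, Eda2r, a receptor of the tumour necrosis factor family, rose from 103 through 112 and 117 to 137 CPM (slope 0.13 ± 0.020, adjusted p = 0.000399). Fas was at 39.3, 37.0, 39.5 and 40.9 CPM and Tnfrsf10b between 100.2 and 106 CPM, with adjusted p of 0.620 and 0.472. Of the 5 growth arrest and signalling genes, 3 rose: Btg2, an antiproliferative co-factor, by 24.7%, Plk2, a polo-like kinase, by 14.5%, and Phlda3, an inhibitor of Akt, by 14.0% from MOI 15 to 120. Btg2 was at 32.5, 35.0, 39.2 and 40.5 CPM, climbing at every step. Plk2 was at 107, 105, 117 and 122 CPM, lowest at MOI 30, and Phlda3 at 145, 152, 177 and 165 CPM, highest at MOI 60. The tetraspanin Cd82 (74.4, 68.0, 70.4 and 70.6 CPM) and the kinase Plk3 (8.86, 9.57, 9.65 and 8.82 CPM) had slopes of -0.02 and 0.0018 and no call.

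In the DNA repair group, the translesion polymerase Polk was at 47.4, 52.3, 55.3 and 60.3 CPM (slope 0.11 ± 0.023, adjusted p = 0.00356), and the nuclease Ercc5 rose by 14.0% (adjusted p = 0.0478). The damage sensors Ddb2 (41.7, 37.1, 41.6 and 42.0 CPM) and Xpc (24.8, 24.6, 26.0 and 25.0 CPM) and the ribonucleotide reductase subunit Rrm2b were not called. Ephx1, a microsomal epoxide hydrolase (ENSMUSG00000038776.7), had the steepest slope of all members, 0.16 ± 0.017 (adjusted p = 6.363e-06), with 153, 169.9, 192 and 214 CPM. Sesn1, a stress-induced inhibitor of mTORC1 signalling, went the other way, with 64.8, 60.5, 58.3 and 52.2 CPM and a slope of -0.10 ± 0.022 (adjusted p = 0.0102). The other 3 of its group, Sesn2, Dram1 and Rps27l (126, 126, 131 and 134 CPM), were not called.

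**Figure D2:**
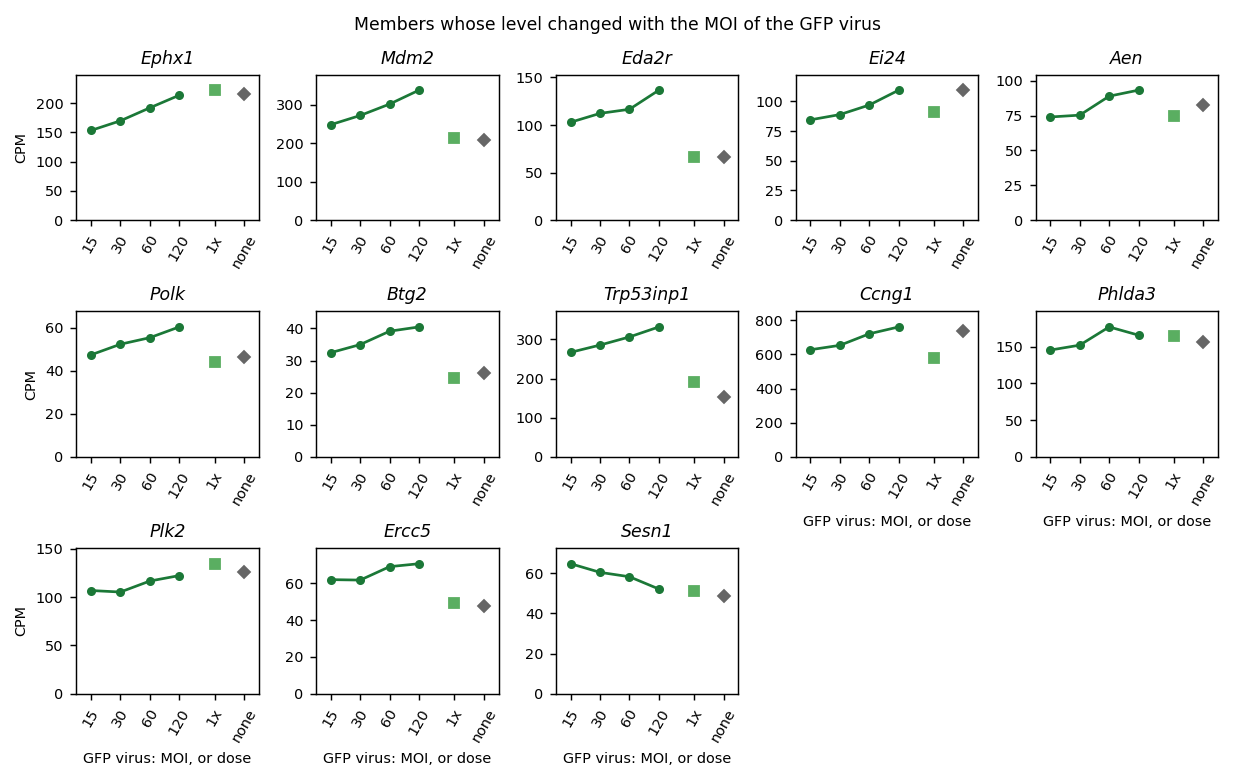
CPM of the 13 members with a called MOI slope, in the 4 MOI libraries (circles joined by a line), the 1x GFP library (square) and the untransduced library (diamond); every vertical axis starts at 0. Levels rise in 12 genes, Sesn1 falls from 64.8 to 52.2 CPM, and for Ephx1 the 1x and untransduced libraries lie above the whole series.

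Counted without a model, 11 of 27 members rose at every step of the series, where 8.68% of all genes did, and 2 (Rrm2b and Sesn1) fell at every step, where 9.27% did. The number of calls depended on the ends of the series: 8 members were called without the MOI 15 library, 6 without the MOI 120 library, and 7 with DESeq2 on all 4. Calls over all genes went down as well, from 1002 to 529 without MOI 15, 338 without MOI 120 and 486 with DESeq2. The calls of 5 members (Aen, Ccng1, Ephx1, Mdm2 and Trp53inp1) held in each of the 9 alternatives.

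Other pathways moved along the same 4 libraries. The 16 interferon-stimulated genes all rose (median slope 0.47), and their summed level was 2225, 3372, 3695 and 5963 CPM. In a list of 24 further p53 targets, 6 of 23 tested rose and 1 fell. The risers included Cdkn1a, the cell cycle inhibitor p21 (347, 365, 397 and 416 CPM, slope 0.09 ± 0.016, adjusted p = 0.00141), Pidd1 (0.20) and Gtse1 (0.13), and also Pml (0.21) and Tap1 (0.28), which are interferon-induced as well, and Thbs1 (0.24), while Ccng2 fell by 0.08 log2 units per doubling. Of 18 tested regulators of p53, Mdm4, an inhibitor of p53 (slope 0.20, adjusted p = 7.593e-06), and the damage kinase Atm (0.20, adjusted p = 7.183e-06) rose and none fell. Of 10 integrated stress response genes, Ddit3 (0.16) and Atf3 (0.49) rose and 6 fell, among them Atf4 (-0.18) and Asns (-0.21), and 2 of 10 cell cycle genes fell, Birc5 (-0.15) and Ccnb2 (-0.15). The summed fibroblast markers lay between 26703 and 27849 CPM in these libraries, with 1 of 10 rising (Fn1) and 2 falling (Vim and Pdgfrb), and the neuron and glia markers summed to 24.8, 24.6, 20.9 and 18.5 CPM, with Tubb3 falling (-0.29, adjusted p = 0.00218). The part of any of these lists in the p53 target slopes was not tested.

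To show what DNA lies in front of genes that move together here, their promoters were searched for the p53 half-site consensus (both strands) in the 250 bases before each RefSeq transcript start of GRCm38.p6. Promoters were found for 22 of the 30 members. A half-site lay in front of 9 of these 22 genes, against 8.20% of 27025 genes, and a full site, a pair of half-sites at most 13 bases apart, in none, against 0.0666%. By MOI call, 5 of 11 risers with a promoter had a half-site, 3 of 9 genes without a call, and Sesn1, which fell. The promoters of 4 risers and of Sesn1 are shown, each running 5′ to 3′ toward the gene and ending at the base before the start, with the half-site in capitals. They are Mdm2 at chr10:117710759-117711008 (minus strand), Ccng1 at chr11:40755287-40755536 (minus), Aen at chr7:78895808-78896057 (plus), Ei24 at chr9:36797335-36797584 (minus) and Sesn1 at chr10:41887189-41887438 (plus).
Mdm2: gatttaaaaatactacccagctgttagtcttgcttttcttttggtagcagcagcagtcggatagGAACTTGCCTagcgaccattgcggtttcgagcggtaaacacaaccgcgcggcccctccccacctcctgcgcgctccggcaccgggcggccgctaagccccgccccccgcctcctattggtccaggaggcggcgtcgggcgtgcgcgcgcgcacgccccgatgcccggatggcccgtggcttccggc
Ccng1: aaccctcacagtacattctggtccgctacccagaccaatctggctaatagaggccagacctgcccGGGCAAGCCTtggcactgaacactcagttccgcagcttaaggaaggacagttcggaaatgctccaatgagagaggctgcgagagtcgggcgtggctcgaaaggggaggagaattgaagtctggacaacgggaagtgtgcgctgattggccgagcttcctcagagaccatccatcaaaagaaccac
Aen: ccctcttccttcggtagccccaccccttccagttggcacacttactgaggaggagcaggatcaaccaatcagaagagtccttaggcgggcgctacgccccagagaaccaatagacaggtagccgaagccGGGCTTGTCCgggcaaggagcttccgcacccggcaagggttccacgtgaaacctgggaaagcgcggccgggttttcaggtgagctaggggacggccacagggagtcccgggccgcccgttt
Ei24: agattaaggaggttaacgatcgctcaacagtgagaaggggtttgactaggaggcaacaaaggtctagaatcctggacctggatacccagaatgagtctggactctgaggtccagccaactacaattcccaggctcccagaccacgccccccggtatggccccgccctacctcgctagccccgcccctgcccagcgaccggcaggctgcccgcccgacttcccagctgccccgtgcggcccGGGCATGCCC
Sesn1: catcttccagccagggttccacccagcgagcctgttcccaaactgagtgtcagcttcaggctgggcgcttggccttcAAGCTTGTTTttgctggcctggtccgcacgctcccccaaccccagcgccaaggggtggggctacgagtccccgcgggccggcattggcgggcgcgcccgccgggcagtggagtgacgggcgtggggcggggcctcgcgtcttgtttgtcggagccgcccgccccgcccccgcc
The half-site begins 186 bases before the start in Mdm2, 185 in Ccng1, 121 in Aen, 10 in Ei24 and 173 in Sesn1. A match is a string of letters and not a measured binding site, and p53 elements inside introns lie outside these windows.

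The 1x GFP library did not sit at one end of the MOI series. Of the 12 risers, it lay below the range of the 4 MOI libraries for 7 (among them Mdm2 at 214 CPM, Eda2r at 66.4 CPM and Trp53inp1 at 191 CPM), within it for 3 and above it for 2 (Plk2 at 134 CPM and Ephx1 at 222 CPM). The untransduced library lay below for 6, within for 4 and above for 2, with Mdm2 at 208 CPM, Eda2r at 66.9 CPM and Trp53inp1 at 154 CPM. For these 3 genes both libraries were therefore below all 4 MOI libraries, and for Ephx1 (216 CPM untransduced) both were above them. Of the risers named above, Aen was at 74.7 CPM with 1x GFP and 82.7 CPM untransduced, Ei24 at 90.7 and 109 CPM, Polk at 44.1 and 46.2 CPM, Btg2 at 24.6 and 26.1 CPM, and Phlda3 at 164 and 156 CPM. Polk and Btg2 were thus below the series in both libraries. Sesn1, which fell along the series, was at 51.0 and 48.8 CPM, below its lowest MOI value, and Zmat3 was at 209 and 234 CPM. Of the 14 members without a call, the 1x GFP library lay below the series for 6, within for 2 and above for 6. The untransduced library lay below for 9, within for 1 and above for 4. A position outside the series was therefore not particular to the risers, and no share over all genes is given.

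Set against the 1x GFP library, the 4 MOI libraries differed in 5 members upward and 5 downward of 27 (18.5% each), where 12.1% of genes were higher and 12.2% lower. The 1x arm is a single library with no spread of its own, and it was assumed to vary like the MOI, MyoD and Myf5 libraries, which gave all 5 residual degrees of freedom. Higher with MOI virus were Eda2r (log2 difference 0.76 ± 0.15, adjusted p = 0.00924), Trp53inp1 (0.58 ± 0.11, adjusted p = 0.00895), Ddb2 (0.50 ± 0.085, adjusted p = 0.00573), Xpc (0.37) and Ercc5 (0.36). Lower were Plk3 (-1.04 ± 0.12, adjusted p = 0.00138), Dram1 (-0.44), Plk2 (-0.31), Bax (-0.26) and Trp53 (-0.23 ± 0.057, adjusted p = 0.0223). Plk3 was at 8.82 to 9.65 CPM in the 4 MOI libraries and at 18.3 CPM in the 1x library, with no overlap, and Trp53 at 136 to 138 CPM against 154 CPM. Map2 (-1.16) and Tubb3 (-0.90) of the neuron and glia list were lower with MOI virus. The 2 sets also differ in depth, and the interferon list summed to 366 CPM at 1x against 2225 CPM or more in the series, so virus amount and library set cannot be told apart in this comparison. Without the MOI 30 library 6 members were called and without the MOI 60 library 5. Calls over all genes went down as well, from 3369 to 2167 without MOI 30 and 2183 without MOI 60.

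MyoD against the 5 GFP libraries called 12 members, 8 higher and 4 lower. At 44.4% this lies near the 42.4% of all 13825 genes called (21.4% higher, 20.9% lower), so the share of members called is close to that of genes in general. By role, 5 of 5 growth arrest and signalling genes rose, 3 of 4 cell death genes rose and 1 fell, 1 of 3 death receptors fell, 2 of 5 DNA repair genes fell, and none of the 5 core or 5 stress metabolism genes was called. These counts are small and no difference between the roles was tested. The median log2 difference was -0.018 in the 27 members and -0.025 over all genes.

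Cd82 (ENSMUSG00000027215.7), a tetraspanin that restrains cell motility, gave the largest difference. Its level was 68.0 to 74.4 CPM in the MOI libraries and 62.4 CPM at 1x GFP. With MyoD it was 477 CPM at 1x and 824 CPM at 2x, which places both MyoD libraries far above every control (log2 difference 3.29 ± 0.20, adjusted p = 2.679e-05). Btg2 (ENSMUSG00000020423.6) was at 24.6 to 40.5 CPM over the GFP libraries, median 35.0 CPM, and at 72.7 and 92.9 CPM in 1x and 2x MyoD, again without overlap (1.33 ± 0.17, adjusted p = 0.000595). Plk3 was at 20.7 and 24.6 CPM with MyoD, above all GFP libraries, of which the 1x library at 18.3 CPM came closest (1.06 ± 0.28, adjusted p = 0.0153).

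Smaller rises were seen in the rest of the group and among death effectors. Phlda3 was at 145 to 177 CPM with GFP and at 207 and 203 CPM with 1x and 2x MyoD (0.40 ± 0.083, adjusted p = 0.00537). Plk2 was at 105 to 134 CPM with GFP and at 155 and 149.6 CPM with MyoD (0.43 ± 0.11, adjusted p = 0.0123). Bax, which permeabilises the mitochondrial membrane, was at 122 to 149 CPM with GFP and at 173 and 186 CPM with MyoD (0.48 ± 0.089, adjusted p = 0.00323). For these 3 genes the MyoD and GFP libraries did not overlap. They were called on the same values, so this is not separate evidence, and no share over all genes is given. Aen was at 98.4 and 111 CPM with MyoD against 74.0 to 93.3 CPM (0.42 ± 0.11, adjusted p = 0.0133). Ei24 was at 104 and 117 CPM with MyoD and overlapped the GFP range of 84.4 to 109 CPM (0.28 ± 0.10, adjusted p = 0.0491).

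With MyoD 4 members fell. Ddb2, which recognises ultraviolet damage in DNA, was at 37.1 to 42.0 CPM in the MOI libraries and 27.6 CPM at 1x GFP, and at 18.4 and 17.4 CPM in 1x and 2x MyoD (-1.02 ± 0.15, adjusted p = 0.00103). The death receptor Fas was at 37.0 to 47.1 CPM with GFP and at 27.6 and 19.4 CPM with MyoD (-0.75 ± 0.15, adjusted p = 0.00417). Bbc3 was at 24.1 to 27.2 CPM with GFP and at 20.8 and 16.7 CPM with MyoD (-0.41 ± 0.090, adjusted p = 0.00697). Each of these 3 had both MyoD libraries below all 5 GFP libraries, which again is not evidence apart from the call. Polk, at 42.1 and 37.3 CPM with MyoD, was also below the GFP range of 44.1 to 60.3 CPM (-0.33 ± 0.11, adjusted p = 0.0355). The untransduced library was below all 5 GFP libraries too for Ddb2 (23.7 CPM), Fas (34.2 CPM) and Bbc3 (17.2 CPM). A low level of these genes was therefore not particular to MyoD. Untransduced Polk, at 46.2 CPM, was inside the GFP range.

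**Figure D3:**
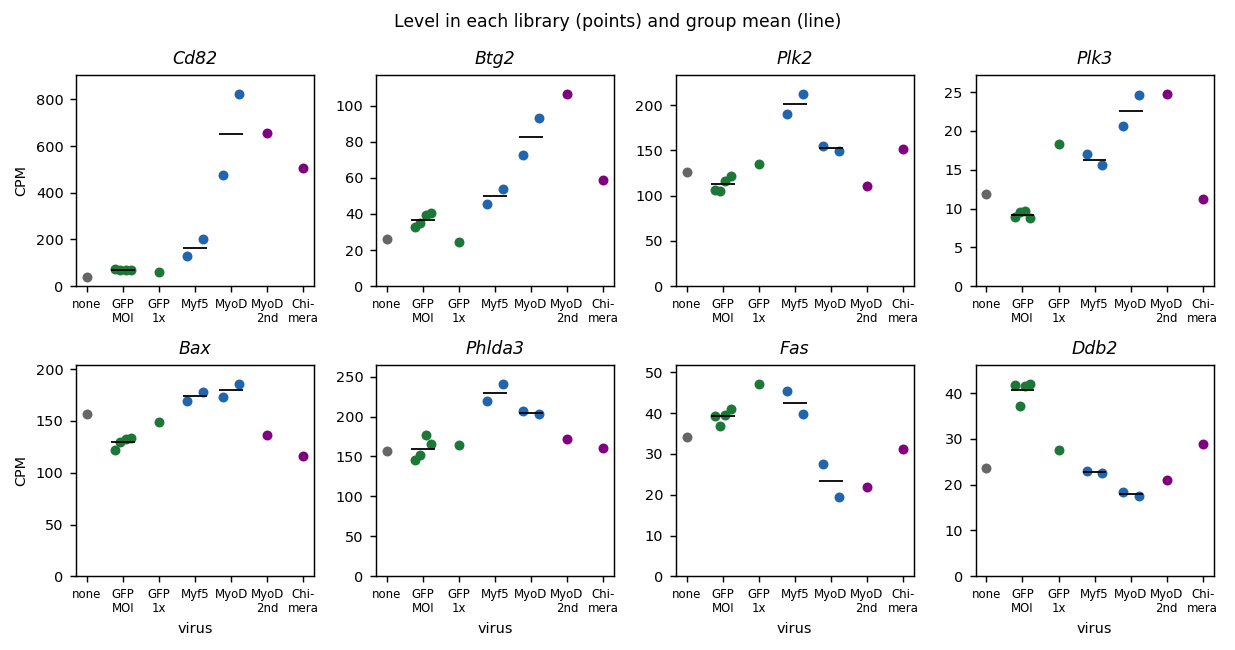
CPM of 8 members in each library, grouped by virus (none, GFP MOI series, GFP 1x, Myf5, MyoD, second-batch MyoD, Chimera); points are libraries, horizontal lines are group means where a group has more than 1 library, and axes start at 0. Cd82 reaches 477 and 824 CPM with MyoD, and Ddb2 is lower with either factor, and in the untransduced library, than in any GFP library.

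Trp53 was at 162 and 150.0 CPM with MyoD against 136 to 154 CPM with GFP (0.21 ± 0.076, adjusted p = 0.0536), and Mdm2 at 254 and 264 CPM against 214 to 338 CPM (-0.03 ± 0.14, adjusted p = 0.876). Neither passed the test. Of the named members without a call, Ephx1 was at 175 and 139.9 CPM, Sesn1 at 48.3 and 47.5 CPM, Xpc at 20.4 and 19.3 CPM and Rps27l at 135 and 135 CPM in 1x and 2x MyoD. With the 1x GFP library alone as the control, 6 members rose and 4 fell (background 15.1% higher, 15.4% lower). Cd82 (3.39 ± 0.38), Btg2 (1.76 ± 0.20), Bax (0.28), Aen (0.50), Ddb2 (-0.61), Fas (adjusted p = 0.00500) and Bbc3 (-0.45) passed again, Trp53inp1 (0.59), Eda2r (0.72) and Dram1 (-0.75) passed here though not against all 5, and Plk2 (0.19), Plk3 (0.32), Phlda3 (0.33), Ei24 (0.29) and Polk (-0.14) did not pass. Against the 4 MOI libraries alone, a control added after the data were seen, 9 rose and 8 fell (background 29.2% higher, 29.5% lower), with Trp53 among the risers (0.26, adjusted p = 0.00143). The count of 12 was 3 without the 2x MyoD library and 7 with dose as a term in the fit. Calls over all genes were 5856 in the main fit and 3489 with the dose term. Leaving out 2x MyoD left 1 MyoD library, and calls over all genes fell there too. Cd82, Btg2 and Ddb2 kept their calls under all 17 alternatives.

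Among the further p53 targets, 4 of 23 rose with MyoD and 3 fell. Cdkn1a was at 303 to 416 CPM with GFP and at 707 and 1073 CPM with 1x and 2x MyoD (1.34 ± 0.16, adjusted p = 0.000396). Igfbp3, which binds insulin-like growth factors, was at 1.56 to 3.84 CPM with GFP and at 29.8 and 75.1 CPM with MyoD (4.32 ± 0.42, adjusted p = 0.000179). Tigar, a regulator of glycolysis (0.82), and Btg1, a relative of Btg2 (0.67), rose too, while Pml (-1.01), Steap3 (-0.72) and Apaf1 (-0.43) fell. Of 18 regulators, Hipk2 rose (1.14), and Chek1 (-0.41), Sirt1 (-0.35), Ppm1d (-0.33) and Ppp1r13b (-0.27) fell. Hipk2 was at 38.9 and 46.5 CPM with MyoD, 31.8 CPM at 1x GFP, 37.6 CPM untransduced and 15.2 to 18.7 CPM in MOI libraries. Sirt1 was at 28.1 and 27.4 CPM with MyoD, 29.8 CPM at 1x GFP, 27.7 CPM untransduced and 37.1 to 40.1 CPM in MOI libraries. Chek1 was at 4.58 and 3.72 CPM with MyoD, below 1x GFP (6.13 CPM), untransduced (14.7 CPM) and MOI libraries (5.09 to 6.33 CPM). At 1x GFP, Ppm1d was at 20.8 CPM (20.6 and 17.0 with MyoD) and Ppp1r13b at 36.3 CPM (34.0 and 28.0). Beside these, all 10 skeletal muscle markers rose (median 9.41), 7 of 10 fibroblast markers fell, Map2 (1.48) and Tubb3 (1.15) of the neuron and glia list and Csf1r (0.48) of the macrophage list rose, and 7 of 16 interferon-stimulated genes fell. Against 1x GFP alone, Map2 (0.67) and Csf1r (0.45) passed again and Tubb3 (0.50) did not. Map2 was at 26.1 and 25.7 CPM with MyoD and 26.3 CPM untransduced. The part of these lists in the result was not tested.

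Because Cd82 carried the largest difference, its promoters were searched for E-boxes, the short motifs that MyoD and Myf5 bind. Of its 4 RefSeq promoters, 2 hold CAGGTG on either strand, at chr2:93452673-93452922 and chr2:93461852-93462101 (both minus strand), and none holds CAGCTG. They are shown 5′ to 3′ with CAGGTG, or its reverse complement, in capitals.
Cd82 first window: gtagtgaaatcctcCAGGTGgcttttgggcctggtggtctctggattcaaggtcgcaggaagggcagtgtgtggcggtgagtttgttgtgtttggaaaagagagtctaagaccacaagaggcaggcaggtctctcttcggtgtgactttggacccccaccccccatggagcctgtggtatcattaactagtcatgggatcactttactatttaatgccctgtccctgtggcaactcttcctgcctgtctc
Cd82 second window: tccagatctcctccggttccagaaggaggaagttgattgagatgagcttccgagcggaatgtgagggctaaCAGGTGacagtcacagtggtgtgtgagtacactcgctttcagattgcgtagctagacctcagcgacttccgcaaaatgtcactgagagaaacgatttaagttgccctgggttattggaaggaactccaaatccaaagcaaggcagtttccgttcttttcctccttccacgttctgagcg
CAGGTG lay in front of 5 of the 22 member genes, slightly above the 19.4% of all genes. CAGCTG lay in front of 2 of the 22, below the 14.7% of all genes. Both counts are small and neither difference was tested, and no background is given for a gene with 4 promoters.

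Myf5 against the 5 GFP libraries called 6 members: 4 rose (14.8%, background 3.81%) and 2 fell (7.41%, background 2.29%). Plk2 had the smallest p. It was at 190.0 and 213 CPM in 1x and 2x Myf5, above the 105 to 134 CPM of the GFP libraries (0.81 ± 0.11, adjusted p = 0.00473). Phlda3 was at 219 and 241 CPM (0.55 ± 0.082, adjusted p = 0.00867), Cd82 at 129.9 and 200.2 CPM (1.29 ± 0.20, adjusted p = 0.0108) and Bax at 169.7 and 178 CPM (0.41 ± 0.089, adjusted p = 0.0317), each above all GFP libraries.

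Lower with Myf5 were Ddb2, at 23.0 and 22.6 CPM (-0.70 ± 0.14, adjusted p = 0.0277), and Sesn1, at 44.4 and 41.0 CPM against 51.0 to 64.8 CPM with GFP (-0.39 ± 0.090, adjusted p = 0.0373). Both were below all 5 GFP libraries, which is not evidence apart from the call. The untransduced library, at 23.7 CPM for Ddb2 and 48.8 CPM for Sesn1, was below those GFP libraries too. Of the other named members, Btg2 was at 45.7 and 53.6 CPM in 1x and 2x Myf5, Aen at 95.5 and 106 CPM, Ei24 at 114 and 119 CPM and Rps27l at 137 and 147 CPM, all above the GFP range but without a call. Plk3 (17.0 and 15.6 CPM), Ephx1 (212 and 189 CPM), Xpc (19.3 and 19.5 CPM), Polk (50.7 and 52.1 CPM) and Bbc3 (24.8 and 23.3 CPM) had at least 1 Myf5 library inside the GFP range. The log2 difference was above 0 in 22 of 27 members, with a median of 0.15 against -0.0028 over all genes. Mdm2 was at 307 and 324 CPM with Myf5 (0.23 ± 0.14, adjusted p = 0.306), inside the span of the MOI series, and Trp53 at 149.7 and 154 CPM (0.15 ± 0.076, adjusted p = 0.228).

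None of the 6 Myf5 calls passed against the 1x GFP library alone, where Trp53inp1 (0.75 ± 0.12, adjusted p = 0.0295) and Btg2 (1.00 ± 0.19, adjusted p = 0.0498) were called instead (background 1.03% higher, 0.152% lower). Against the 4 MOI libraries alone, 11 members rose and 3 fell (background 18.8% higher, 17.9% lower). The count of 6 was 0 without the 2x Myf5 library, 13 without the 1x GFP library, and 3 when the 1x Myf5 library or the MOI 15, 30 or 60 library was left out. It was 3 with dose as a term and 10 with DESeq2. Over all genes, 843 were called in the main fit, 5063 without 1x GFP, 229 with the dose term and 2143 with DESeq2. Without the MOI 15, 30 or 60 library the calls over all genes were 270, 246 and 282. Leaving out a Myf5 library left 1 in that group, and calls over all genes fell there too. The interferon list summed to 1126 and 3868 CPM in 1x and 2x Myf5 and gave no call against GFP. Of the cell type markers, 8 of 10 for muscle rose, 3 of 10 for fibroblasts fell (Col3a1 -0.93, Dcn -0.88 and Lum -1.97), and Map2 (1.27) and Tubb3 (1.36) of the neuron and glia list rose. Against 1x GFP alone none of these called markers passed, with Map2 at 0.46, Tubb3 at 0.72 and Lum at -1.19. The part of these markers in the result was not tested. Of the further p53 targets, Thbs1, an extracellular matrix glycoprotein (1.09), Tigar (0.72), Ckap2 (0.49) and Btg1 (0.31) rose and none fell. One regulator, Ppp1r13b (-0.45), fell.

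**Figure D4:**
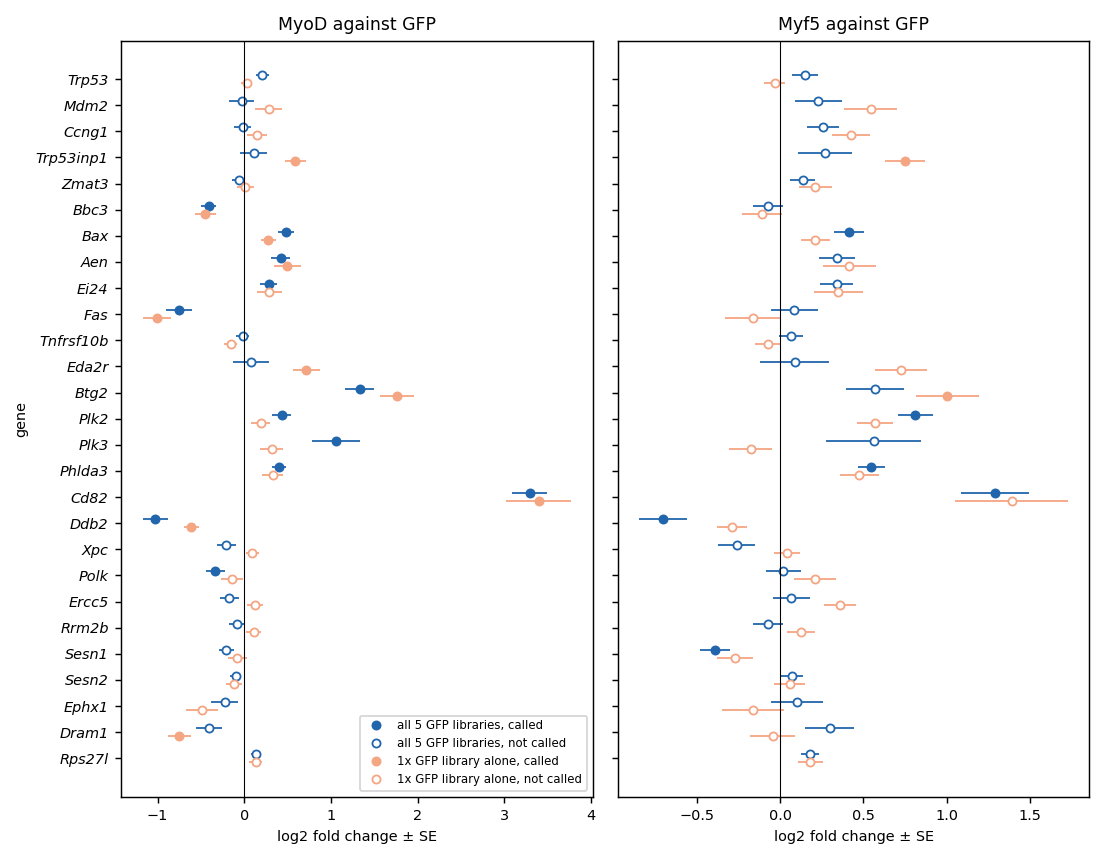
Log2 difference from the 5 GFP libraries (blue) and from the 1x GFP library alone (orange) for each tested member with MyoD (left) and with Myf5 (right), with standard errors as bars and filled circles for an adjusted p under 0.05; the 2 panels differ in scale. Cd82 lies farthest from 0 with MyoD (3.29) and Plk2, Phlda3, Cd82 and Bax are called upward in blue in both panels, which share the same GFP libraries.

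Both comparisons use the same GFP libraries, so the 2 factors were also set against each other. Of 27 members, 2 differed: Cd82 was higher with MyoD than with Myf5 (log2 difference 2.00 ± 0.26, adjusted p = 0.0229; background 4.21% higher) and Fas lower (-0.84 ± 0.17, adjusted p = 0.0318; background 1.29% lower). Fas stood at 45.3 and 39.7 CPM with 1x and 2x Myf5, inside the GFP range of 37.0 to 47.1 CPM. Plk2 was lower with MyoD in both libraries and Btg2 higher in both, without a call. The median over the members was -0.15, with 19 of 27 below 0, and -0.0074 over all genes. The count of 2 was 0 without the MOI 30, the MOI 60, the 2x MyoD or either Myf5 library, 1 without the MOI 15 or the MOI 120 library, 5 without 1x MyoD and 7 without 1x GFP. With dose as a term, which matches the 1x and 2x libraries of the 2 factors, it was 5, with DESeq2 4, and with only the MyoD and Myf5 libraries in the fit 0. Calls over all genes were 761 in the main fit, 10 and 12 without MOI 30 or 60, 149 and 325 without MOI 15 or 120, and 2706 without 1x GFP. The dose term called 1400 genes, DESeq2 1750, and the fit of the 2 factor groups alone 0. Leaving out a MyoD or Myf5 library left 1 in that group. Calls over all genes then went up without 1x MyoD and down without 2x MyoD or either Myf5 library. Cd82 (1.98 ± 0.084, adjusted p = 3.588e-05) and Fas (-0.85 ± 0.14, adjusted p = 0.00962) were both called with the dose term. Cdkn1a (0.82, adjusted p = 0.0472) and Igfbp3 (3.29, adjusted p = 0.0229) were higher with MyoD among the further targets, and Ckap2 (-0.44, adjusted p = 0.0410) was lower.

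Going from 1x to 2x of the factor viruses called no member in edgeR (0 of 27, background 0.0217% higher and 0.00% lower), with 2 members at an unadjusted p under 0.05. Cd82 had the smallest p. It rose from 477 to 824 CPM with MyoD and from 129.9 to 200.2 CPM with Myf5 (0.73 ± 0.081, adjusted p = 0.0579), and Fas went down in both (-0.33 ± 0.14, adjusted p = 0.428). Zmat3 was at 225 and 195 CPM in 1x and 2x MyoD and 257 and 232 CPM in 1x and 2x Myf5 (-0.16 ± 0.071, adjusted p = 0.466). DESeq2 called 1 member and leaving out the 1x GFP library gave 2. Calls over all genes were 3 in the main fit, 290 with DESeq2 and 1018 without 1x GFP. A difference in dose effect between MyoD and Myf5 was called for 0 of 13825 genes in edgeR, with 275 at an unadjusted p under 0.05.

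The untransduced library, which saw no virus, differed from the GFP libraries in 4 members. Rps27l, a ribosomal protein paralog, was at 161 CPM without virus against 124 to 134 CPM with GFP (0.38 ± 0.071, adjusted p = 0.0154; 3.70% of members higher, background 5.83%). The 3 lower ones (11.1%, background 2.52%) were Xpc at 14.3 CPM against 18.7 to 26.0 CPM (-0.68 ± 0.15, adjusted p = 0.0276), Bbc3 at 17.2 CPM against 24.1 to 27.2 CPM (-0.54 ± 0.12, adjusted p = 0.0286), and Sesn2, a leucine sensor, at 64.4 CPM against 81.5 to 92.2 CPM (-0.37 ± 0.091, adjusted p = 0.0396). In each of the 4 the single untransduced value lay outside all 5 GFP values. Of the named members without a call, Trp53 was at 163 CPM, the highest of the 12 libraries, and Cd82 at 38.0 CPM, the lowest. Ddb2 (23.7 CPM) and Fas (34.2 CPM) were below all 5 GFP libraries and Bax (156 CPM) above them. Plk2 (126 CPM) and Plk3 (11.9 CPM) were inside the GFP range. Members without a call thus also lay outside all 5 GFP values, so such a position is not separate evidence. This group has 1 library, assumed to vary like the others.

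Rps27l kept its call under all 17 alternatives. Where leaving out a library changed the counts of called members given below, calls over all genes changed in the same direction. Against 1x GFP alone, where both arms are single libraries and all the spread comes from the other groups, Rps27l (0.38, adjusted p = 0.0425), Xpc (-0.38, adjusted p = 0.0499) and Dram1, a lysosomal protein of autophagy (39.7 against 79.4 CPM, adjusted p = 0.0135), passed the threshold (background 3.37% higher, 1.57% lower). Against the 4 MOI libraries alone, 4 members were higher and 10 lower (background 19.2% higher, 18.2% lower), and the lower ones included Trp53inp1 (-0.90), Eda2r (-0.75) and Mdm2 (-0.43, adjusted p = 0.0495). The count of 4 was 1 without the MOI 15, 30 or 60 library, 2 without the MOI 120 or either Myf5 library, and 13 without 1x GFP. All 10 cell cycle genes that p53 and p21 are known to repress were higher in untransduced cells (median 1.42, among them Mybl2 at 1.66 and Cdk1 at 1.28), and so were the checkpoint kinases Chek1 (1.41) and Chek2 (0.88). Map2 (1.49) was higher and the fibroblast marker Dcn (-1.17) lower. The part of these genes in the result was not tested.

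The last comparison sets Chimera virus against second-batch MyoD virus, 1 library each, so there is no test and intervals are exact 95% binomial ones that cover counting error only. Of 27 members with at least 50 counts, 1 was at least 1.5-fold higher with the Chimera (3.70%, background 7.31%) and 2 were lower (7.41%, background 7.11%). Ephx1 was at 194 CPM with the Chimera and 115 CPM with MyoD (ratio 1.69, interval 1.61 to 1.77). Plk3 was at 11.3 and 24.8 CPM (ratio 0.455, interval 0.393 to 0.525), and Btg2 at 59.0 and 107 CPM (ratio 0.554, interval 0.519 to 0.591). With the 1x MyoD library of the first table as the partner, Plk3 stayed past the limit (0.569), but Ephx1 (1.15) and Btg2 (0.846) did not, and Ddb2 did (1.63). Over all 14424 genes compared with that partner, 2029 were past the limit upward and 1875 downward.

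Just short of the fold limit lay Polk (55.0 and 36.8 CPM, ratio 1.49, interval 1.37 to 1.63) and Trp53inp1 (391 and 262 CPM, ratio 1.49, interval 1.44 to 1.54). Fas had a ratio of 1.43, Eda2r 1.42, Ddb2 1.37 and Plk2 1.37. Cd82 was at 505 CPM with the Chimera and 655 CPM with MyoD (ratio 0.770, interval 0.752 to 0.788), Mdm2 at 247 and 276 CPM (0.894, interval 0.863 to 0.926) and Trp53 at 141 and 133 CPM (1.06, interval 1.01 to 1.11). Of the other named members, Bax was at 116 and 137 CPM, Aen at 85.8 and 95.2 CPM, Phlda3 at 161 and 171 CPM, Ei24 at 124 and 94.2 CPM, Zmat3 at 213 and 189 CPM and Bbc3 at 19.4 and 16.4 CPM. Fas was at 31.3 and 21.9 CPM, Ddb2 at 28.8 and 21.1 CPM and Plk2 at 151 and 111 CPM. Xpc (26.5 and 24.2 CPM), Sesn1 (50.3 and 48.1 CPM) and Rps27l (123 and 121 CPM) had intervals that include a ratio of 1. The median log2 ratio was 0.079. In the same pair, 9 of 10 muscle markers were lower with the Chimera (median log2 ratio -1.27), 13 of 16 interferon-stimulated genes were higher (median 1.16) and 4 of 10 fibroblast markers were higher. The muscle direction depended on the partner. With the 1x MyoD library of the first table, 4 of 10 muscle markers were higher and 0 lower (median 0.498). The muscle markers summed to 1037 CPM with the Chimera, 2783 CPM with second-batch MyoD and 861 CPM with that 1x MyoD library. Against it, 16 of 16 interferon-stimulated genes were higher, and of 10 fibroblast markers 5 were higher and 2 lower. Their part in these ratios was not tested.

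**Figure D5:**
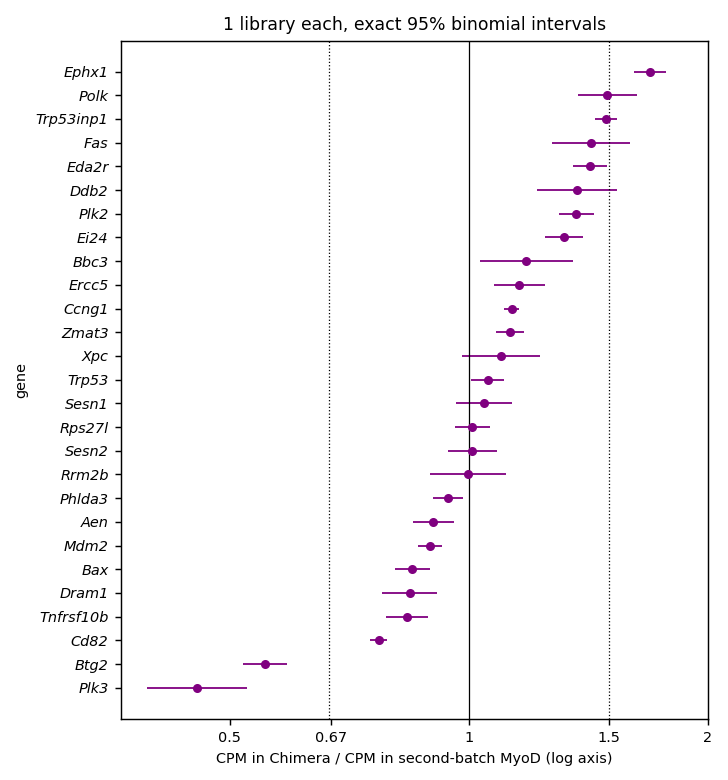
Ratio of CPM with the Chimera to CPM with second-batch MyoD for the 27 members with at least 50 counts, on a log axis, with exact 95% binomial intervals that cover counting error; dotted lines mark 1.5-fold in either direction. Ephx1 lies above the upper line and Plk3 and Btg2 below the lower one.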

How the data were processed

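Poly(A) RNA was measured in 12 libraries. The submitters' processing notes name CASAVA 1.8.2, TopHat2 2.0.8 and the build mm9. The counting step and its use of strand are not given in the sources used here. In the first deposited table (10 libraries) the authors give expected counts, some not whole, and these were rounded. The second deposited table (2 libraries) has whole-number counts. The 37 mitochondrial genes are at 0 in the first table but make up 4.05% and 4.18% of the second, and the 2 tables were kept apart in all fits. Symbols came from GENCODE vM21 names (32610 of 37287 IDs), and 1.26% to 1.45% of counts lay in IDs without one.

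The design was written for whole-number counts, and the rounded table was fitted as designed. In R 4.3.3, edgeR 4.0.16 (TMM, two-sided quasi-likelihood test, Benjamini-Hochberg over all genes) was run on genes reaching 1 CPM in 2 or more libraries. The 4 groups left 6 residual degrees of freedom and the MOI slope 2. Standard errors were derived from the F statistic, and the fits were tested on simulated data. Alternatives were DESeq2 1.42.0, other scaling, no filter, other controls, a dose term and leaving out each library. Counts of same-group libraries differed by more than sampling noise, so none is a copy. Values by library, or their range over a group, were given for Trp53, Mdm2 and the members with the smallest p or the largest Chimera ratio, and others by range. The members and lists were chosen with earlier results of these data known.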

Additional observations from a re-analysis of the deposited data

Results flagged for a closer look

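In 3 p53 target genes, the GFP group of 5 had 1 value far from the other 4 (gap over range above Dixon's limit, 27 genes tested). Chance alone gives about 1 in 20, but only where the 5 libraries are alike. Each time the value was that of the 1x GFP library, set against the MOI series. Trp53 was at 153.9 CPM there, against 136 to 138 CPM in the MOI libraries. Plk3 was at 18.27 CPM, against 8.82 to 9.65 CPM. Xpc was at 18.7 CPM, against 24.6 to 26.0 CPM. The 5 libraries were not alike. Chi-squared per degree of freedom between counts was 59.94 to 133.3 for 1x GFP against MOI libraries, which also differ in depth. Among the MOI libraries it was 1.971 to 16.95. The rate of 1 in 20 therefore does not hold, and the flags cannot be read as an excess in p53 targets. No share over all genes is given.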

How the results depend on the processing

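Counts of members called that moved by over 1.5 times were as follows. DESeq2 called 10 with Myf5, 4 for MyoD against Myf5, 8 in untransduced cells, 7 for the MOI slope and 1 for dose. The dose term gave 7 with MyoD, 3 with Myf5 and 5 for MyoD against Myf5, where fitting only the groups compared gave 0. No filter gave 2 in untransduced cells and 1 for dose. Myf5 gave 2 against 1x GFP alone. The 4 MOI libraries as control, added after seeing the data, gave 14 with Myf5 and 14 in untransduced cells. For the Chimera pair, a fold of 2 gave 1 and a minimum of 10 counts gave 5. Over all genes, the fold of 2 gave 359 higher and 311 lower of 13412. The minimum of 10 counts gave 1687 higher and 1564 lower of 15894, against 981 and 953 of 13412 in the main setting. Leaving out 1 library at a time gave 3 to 18 with MyoD, 0 to 13 with Myf5, 0 to 7 for MyoD against Myf5, 1 to 13 in untransduced cells, 6 to 13 for the MOI slope, 5 to 13 for MOI against 1x GFP and 0 to 2 for dose. Calls over all genes moved too. Leaving out the 1x GFP library raised them from 5856 to 8073 with MyoD and from 843 to 5063 with Myf5. For MyoD against Myf5 they rose from 761 to 2706. Leaving out 2x MyoD or 2x Myf5 left 1 library of that factor, and its calls over all genes fell. The cause was not tested.

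Scaling changed the sign of 5 differences, none of them called: Bbc3 and Sesn2 for MOI against 1x GFP, Polk with Myf5, Eda2r for MyoD against Myf5, and Phlda3 in untransduced cells. No called member reversed. Against the first table's 1x MyoD, the log2 Chimera ratio was -0.24 for Btg2 and 0.21 for Ephx1, both no longer past 1.5-fold, and -0.81 for Plk3. No paired analysis was possible because the labels carry no replicate numbers; the 1x and 2x labels are doses, and the dose term above matches them across MyoD and Myf5. Single libraries per dose, MOI and Chimera limit every comparison, and groups sharing 1 fit also share its spread.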
